A study of Homo sapiens with 6 samples.

Results

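The genes described here encode the small ribosomal subunit processome and the factors that finish and export the small (40S) ribosomal subunit. They are 48 named genes, of which 47 had a row of their own among the 18417 genes measured on the array. NOP56 is the exception: its row also carries the small nucleolar RNA gene SNORD56 and is given apart. The cells were YCC3, a line derived from human gastric cancer, transfected in culture and lysed for RNA 48 hours later. There were 3 arrays of cells given siRNA against CTNNB1 and 3 of cells given a non-targeting control siRNA. siRNAs are small RNA duplexes that guide the degradation of mRNAs they match. Both groups were transfected, so every array comes from cells that received siRNA. The labels state neither the siRNA sequences nor the dose, nor if several siRNAs were mixed, and no untransfected cells were used. They call the samples biological replicates without saying that cultures were separate, so the spread behind each p-value may be partly technical.

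Values are log2 RMA signals, a scale on which 1 unit is a doubling of array signal. Each gene is read through its own probes, so a brighter signal does not show that 1 gene has more RNA than another, and brightness is used here only as a property of the measurement. The only measured value used to choose a gene's row was the mean signal over all 6 arrays, which does not use the groups. It mattered for PDCD11, the only gene here with more than 1 row. The gene set was drawn up with earlier results of these arrays known, so its counts are descriptions of these genes and not independent evidence of a direction.

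The processome is a very large particle that forms in the nucleolus on the freshly transcribed ribosomal RNA precursor. Built around the U3 small nucleolar ribonucleoprotein and preassembled protein complexes, it folds, modifies and cuts the precursor so that the small subunit rRNA is released from it. The particle is then dismantled, and late factors carry the immature subunit to the cytoplasm and make the last cut there. Growing and dividing cells, cancer cells among them, make ribosomes at a high rate, and the transcription factor MYC is known to act on many of these genes.

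The silencing was visible in the targeted transcript. CTNNB1, which encodes beta-catenin of the Wnt pathway and of cell junctions, measured 10.94, 11.06 and 11.20 with CTNNB1 siRNA, against 11.80, 11.81 and 11.90 with control siRNA. All CTNNB1 siRNA arrays lay below all control arrays, and CTNNB1 fell by 0.77 ± 0.10 log2 units (SE; adjusted p = 0.00267 in limma). The median signal of an array was 5.88 to 5.95, and every one of the 47 genes had a mean signal above the median gene. Of 16 gastric epithelial markers 15 had signals above the median gene, 3 rose and none fell, and 13 had changes above 0. Those that rose were TFF1 by 1.15 ± 0.11 (SE; limma, adjusted p = 0.000314), CLDN4 by 0.61 ± 0.10 (adjusted p = 0.00763) and ELF3 by 0.48 ± 0.12 (adjusted p = 0.0462). EPCAM measured 11.80 ± 0.16 with CTNNB1 siRNA and 11.78 ± 0.11 with control siRNA (SD, n = 3 each), and the leukocyte marker PTPRC measured 2.67 ± 0.07 with CTNNB1 siRNA and 2.58 ± 0.19 with control siRNA (SD, n = 3 each). The summed linear signal of 14 leukocyte markers ran from 1260 to 1510 in CTNNB1 siRNA arrays and from 795 to 989 in control arrays. CD68, a lysosomal gene that epithelial cells also express, was the only called marker among them. All 14 had changes above 0, as had 9425 of all 18417 genes. Without CD68 the sums were 399 to 466 in CTNNB1 siRNA arrays and 355 to 426 in control arrays. The sums of 10 stromal and endothelial markers were 355 to 377 in CTNNB1 siRNA arrays and 328 to 352 in control arrays. Of these markers 7 had changes above 0, 3 had changes below 0 and none was called. Only 1 of the 14 leukocyte markers, CD68, and 1 of the 10 stromal and endothelial markers had a mean signal above the median gene. The other sums thus come mostly from dim rows. The part of these markers in the results below was not tested.

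Transcripts of the processome were lower in CTNNB1 siRNA cells. Of 47 genes 22 fell, none rose and 25 did not pass the threshold, an adjusted p under 0.05 in limma with adjustment over all 18417 genes. Over all genes tested 2.65% fell and 2.07% rose. The fitted change was negative for 46 of the 47 genes, beside 48.8% of all genes. The median change of the 47 was -0.42 log2 units, beside a median of 0.01 over all genes. The largest falls were those of UTP20 at -0.83 ± 0.12, HEATR1 at -0.78 ± 0.11, DDX21 at -0.76 ± 0.11 and DDX10 at -0.71 ± 0.12 (SE). IMP3, at 0.02 ± 0.10, was the only gene with a positive value. In bulk RNA a lower signal can come from fewer cells of a type or from less RNA per cell, and these cannot be told apart. Because RMA makes the arrays' distributions alike, the changes are relative to the other genes on the array.

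The separation held gene by gene. In 39 of 47 genes each CTNNB1 siRNA array lay below each control array, an arrangement seen with that direction in 15.2% of all genes, and in none did each lie above. All 22 genes that fell were among the 39, and the 95% confidence interval of the change lay below 0 for 42 genes. Over all genes 20.3% had an interval that excluded 0 in either direction, that is an unadjusted p under 0.05 in limma. The genes here are brighter than most genes on the array, and genes of their brightness leaned lower as a whole. Of the 7500 genes with a mean signal within their range, 6.91 to 10.4, 4.90% fell and 60% had a negative change. In 25.6% all CTNNB1 siRNA arrays lay below all control arrays, and the median change was -0.05. With the arrays centred on those 7500 genes, a setting added after seeing the data, 14 of the 47 fell and their median change was -0.35. Over all genes 1.54% fell in that setting.

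**Figure D1:**
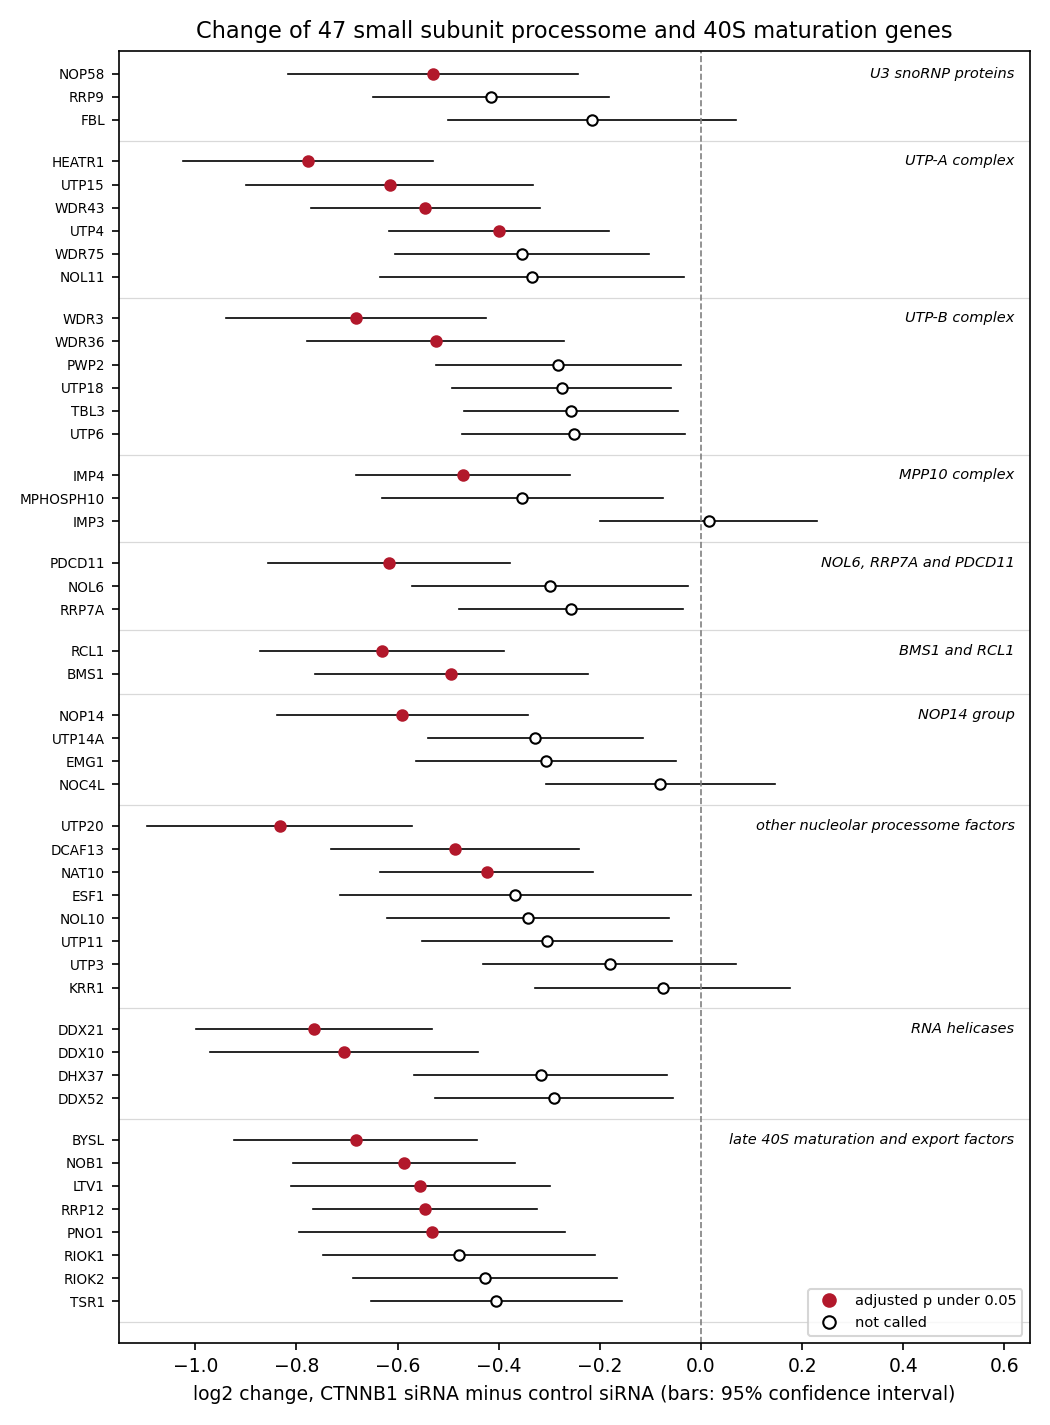
Log2 change, CTNNB1 siRNA minus control siRNA, of the 47 genes grouped by their place in the pathway. Points are limma estimates from 3 arrays per group, bars are 95% confidence intervals and filled points mark the 22 genes with an adjusted p under 0.05. The points lie left of 0 for 46 genes, from UTP20 at -0.83, and IMP3 lies at 0.02.

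The arrays of a group did not carry the difference equally. Relative to each gene's own mean over the 6 arrays, the median gene stood at -0.22, -0.31 and -0.11 in CTNNB1 siRNA replicates 1, 2 and 3. In control replicates 1, 2 and 3 it stood at 0.27, 0.14 and 0.26. CTNNB1 siRNA replicate 2 was the lowest array for 26 of 47 genes, and control replicates 1 and 3 were the highest for 23 and 22. The same medians over all genes lay between -0.01 and 0.01. The count of falls rested on single arrays: it was 7 without CTNNB1 siRNA replicate 1, 10 without CTNNB1 siRNA replicate 2, 5 when control replicate 1 was left out and 11 without control replicate 3. Leaving out CTNNB1 siRNA replicate 3 gave 21 and leaving out control replicate 2 gave 15. In those smaller fits between 0.516% and 2.79% of all genes fell, beside 2.65% in the fit of all 6 arrays. The share was 0.516% without control replicate 1 and 0.543% without CTNNB1 siRNA replicate 1. Why the counts changed was not tested. No gene rose and the median change stayed between -0.47 and -0.39 whichever array was left out. UTP20, HEATR1, DDX21 and BYSL were called with any 1 array left out and in each of the other settings tried. Scaling by cyclic loess left 16 falls, with the calls of BMS1, IMP4, NAT10, NOP58, PNO1 and UTP4 lost at adjusted p between 0.0509 and 0.0748. Over all genes 2.06% fell under cyclic loess.

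**Figure D2:**
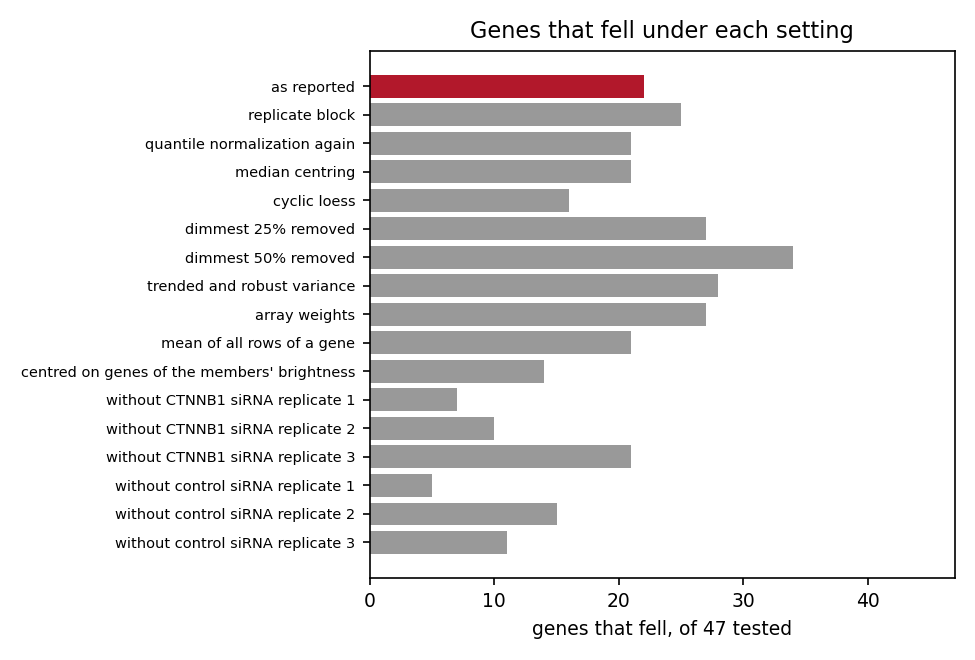
Number of the 47 genes that fell (adjusted p under 0.05) in the fit as reported and in each other setting. The count runs from 5 without control siRNA replicate 1 to 34 with the dimmest 50% of genes removed, and is 22 as reported.

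**Figure D3:**
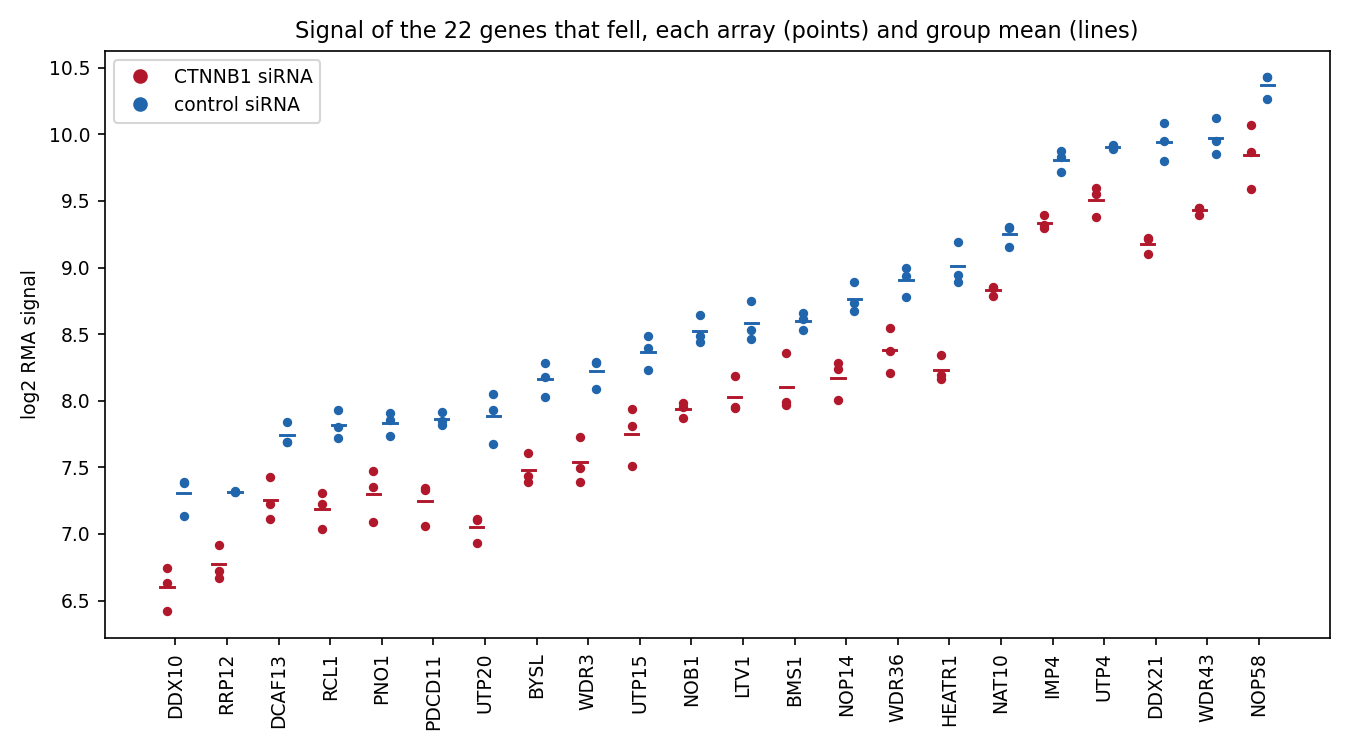
Log2 RMA signal of the 22 genes that fell, in every array (points) with the group means (lines), CTNNB1 siRNA left of control siRNA and genes ordered by their control mean. The groups do not overlap in any of the 22 genes.

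The UTP-A complex, also called the transcription-coupled UTPs, is the first protein complex to bind the nascent rRNA precursor and is known to affect RNA polymerase I transcription as well. Of its 6 genes 4 fell and 2 missed the threshold. Over all genes 2.65% fell, a share to set beside this count and those of the groups below. The median change was -0.47. HEATR1, the largest subunit, which is built of HEAT repeats, measured 8.16, 8.20 and 8.34 with CTNNB1 siRNA, against 9.19, 8.89 and 8.95 with control siRNA. Its fall of 0.78 ± 0.11 log2 units (SE), or 41.7% of its signal, had an adjusted p of 0.00416 in limma, and the lowest control array stood above the highest CTNNB1 siRNA array. UTP15, a WD40-repeat subunit, measured 7.81, 7.51 and 7.94 with CTNNB1 siRNA, against 8.39, 8.23 and 8.49 with control siRNA, and it fell by 0.62 ± 0.13 (adjusted p = 0.0242). WDR43, the counterpart of yeast Utp5, measured 9.45, 9.39 and 9.45 with CTNNB1 siRNA, against 10.12, 9.85 and 9.95 with control siRNA, and it fell by 0.54 ± 0.10 (adjusted p = 0.0156). The CTNNB1 siRNA arrays agreed closely on WDR43, with an SD of 0.03. UTP4, also known as cirhin and mutated in a childhood form of liver cirrhosis, measured 9.60, 9.38 and 9.55 with CTNNB1 siRNA, against 9.92, 9.92 and 9.89 with control siRNA, and its change was -0.40 ± 0.10 (adjusted p = 0.0468).

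The remaining UTP-A genes pointed the same way without passing. WDR75, the counterpart of yeast Utp17, measured 8.59, 8.46 and 8.78 with CTNNB1 siRNA, against 8.95, 8.86 and 9.08 with control siRNA, with no overlap and an adjusted p of 0.109. NOL11, which binds UTP4, measured 7.85, 7.49 and 7.88 with CTNNB1 siRNA, against 8.18, 7.87 and 8.17 with control siRNA, and its groups overlapped (adjusted p = 0.198). Among the called genes of the complex, leaving out 1 array ended the call in 4 of 6 cases for UTP15 (adjusted p up to 0.102 without control siRNA replicate 1), 4 of 6 for WDR43 (up to 0.0868) and 6 of 6 for UTP4 (up to 0.166), each highest without control siRNA replicate 1.

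The UTP-B complex, a chain of WD40-repeat proteins that joins the particle after UTP-A, had 2 falls among 6 genes, 4 genes that did not pass and a median change of -0.28. In all 6 the CTNNB1 siRNA arrays lay below the control arrays, as in 15.2% of all genes and 25.6% of genes of like brightness. WDR3, the counterpart of yeast Utp12, measured 7.39, 7.49 and 7.73 with CTNNB1 siRNA, against 8.28, 8.09 and 8.29 with control siRNA, and it fell by 0.68 ± 0.12 (SE; limma, adjusted p = 0.0102). WDR36, the counterpart of yeast Utp21 and a gene studied in glaucoma, measured 8.38, 8.21 and 8.55 with CTNNB1 siRNA, against 8.99, 8.78 and 8.93 with control siRNA, and it fell by 0.52 ± 0.11 (adjusted p = 0.0298). The calls were lost in 2 of 6 fits without 1 array for WDR3 (adjusted p up to 0.0575 without CTNNB1 siRNA replicate 1) and in 4 of 6 for WDR36 (up to 0.135 without control siRNA replicate 1).

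The other UTP-B genes had smaller values, all close to each other. UTP18, which in yeast recruits the RNA exosome to the particle, measured 8.11, 8.14 and 8.28 with CTNNB1 siRNA, against 8.52, 8.40 and 8.44 with control siRNA, a change of -0.28 ± 0.10 (adjusted p = 0.142). PWP2 measured 7.19, 6.94 and 7.11 with CTNNB1 siRNA, against 7.31, 7.28 and 7.50 with control siRNA, a change of -0.28 ± 0.11 (adjusted p = 0.175). TBL3, the counterpart of yeast Utp13, measured 7.21, 7.15 and 7.13 with CTNNB1 siRNA, against 7.39, 7.35 and 7.52 with control siRNA, a change of -0.26 ± 0.10 (adjusted p = 0.159). These separations are small beside those of WDR3 and WDR36, and whether they differ from them was not tested. UTP6, a helical-repeat protein of the complex, measured 9.71, 9.57 and 9.68 with CTNNB1 siRNA, against 9.91, 9.81 and 10.01 with control siRNA, a change of -0.25 ± 0.10 (adjusted p = 0.186).

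Genes of the U3 small nucleolar ribonucleoprotein all had negative changes where measured, and they differed in passing the threshold. The U3 particle base-pairs with the precursor and holds its ends in place for cutting. Of 3 measured genes 1 fell and 2 did not pass. NOP58, a core protein of all box C/D particles, measured 9.86, 9.59 and 10.07 with CTNNB1 siRNA, against 10.43, 10.26 and 10.43 with control siRNA, and it fell by 0.53 ± 0.13 (SE; limma, adjusted p = 0.0462). RRP9, the protein specific to U3, measured 7.15, 7.26 and 7.24 with CTNNB1 siRNA, against 7.59, 7.52 and 7.80 with control siRNA, with no overlap, and its change of -0.42 ± 0.11 had an adjusted p of 0.0523. FBL, or fibrillarin, the methyltransferase that marks rRNA at the sites these particles select, measured 10.37, 10.30 and 10.29 with CTNNB1 siRNA, against 10.69, 10.66 and 10.24 with control siRNA. Control replicate 3 lay below every CTNNB1 siRNA array for FBL, and the adjusted p was 0.391. The row shared by NOP56 and SNORD56, NOP56 being the partner of NOP58, measured 7.75, 7.72 and 7.73 with CTNNB1 siRNA, against 7.90, 7.96 and 8.16 with control siRNA. Its change in a fit over all rows was -0.27 ± 0.10 (SE; limma, adjusted p = 0.279). The call of NOP58 was lost in 5 of 6 fits without 1 array, with an adjusted p of up to 0.166 without control siRNA replicate 1.

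The MPP10 complex of 3 proteins held 1 fall among its 3 genes, and also the gene whose value was nearest 0. IMP4 measured 9.30, 9.39 and 9.32 with CTNNB1 siRNA, against 9.88, 9.83 and 9.71 with control siRNA, and it fell by 0.47 ± 0.10 (SE; limma, adjusted p = 0.0218). MPHOSPH10, or MPP10, which binds IMP3 and IMP4, measured 8.21, 7.94 and 8.31 with CTNNB1 siRNA, against 8.59, 8.34 and 8.60 with control siRNA, a change of -0.35 ± 0.12 (adjusted p = 0.142). IMP3 measured 7.72, 7.56 and 7.74 with CTNNB1 siRNA, against 7.69, 7.63 and 7.65 with control siRNA. The IMP3 groups were intermingled, and the interval of its change ran from -0.20 to 0.23. The difference between IMP3 and its partners was not tested. IMP4 lost its call in 3 of 6 fits without 1 array, with an adjusted p of up to 0.115 without control siRNA replicate 1.

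NOL6, RRP7A and PDCD11 correspond to yeast Utp22, Rrp7 and Rrp5, and 1 of the 3 fell. PDCD11 is a long RNA-binding protein needed for the rRNA of both subunits. On its brighter row it measured 7.33, 7.06 and 7.34 with CTNNB1 siRNA, against 7.92, 7.82 and 7.85 with control siRNA, and it fell by 0.62 ± 0.11 (SE; limma, adjusted p = 0.0115). A dimmer PDCD11 row went the other way, at 6.06, 5.98 and 5.94 with CTNNB1 siRNA, against 5.72, 5.62 and 5.66 with control siRNA. The CTNNB1 siRNA arrays were all higher there, by 0.33 ± 0.09 (SE; limma over all rows, adjusted p = 0.171). With both rows averaged the change was -0.14 and the call was lost (adjusted p = 0.450). The call was also lost without control siRNA replicate 1 (adjusted p = 0.0634). NOL6 measured 6.91, 6.68 and 6.70 with CTNNB1 siRNA, against 7.24, 6.85 and 7.10 with control siRNA, with overlap (adjusted p = 0.205). RRP7A, which has a similar pseudogene that may share its signal, measured 9.98, 9.93 and 9.99 with CTNNB1 siRNA, against 10.18, 10.12 and 10.36 with control siRNA, without overlap (adjusted p = 0.178).

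BMS1, a GTPase, and RCL1, which is related to RNA cyclases, enter the particle together in yeast, and both fell. RCL1 measured 7.23, 7.04 and 7.31 with CTNNB1 siRNA, against 7.81, 7.72 and 7.93 with control siRNA, and it fell by 0.63 ± 0.11 (SE; limma, adjusted p = 0.0110). BMS1 measured 7.97, 7.99 and 8.36 with CTNNB1 siRNA, against 8.66, 8.53 and 8.61 with control siRNA, with CTNNB1 siRNA replicate 3 closest to the control arrays, and fell by 0.49 ± 0.12 (adjusted p = 0.0483). BMS1 was the called gene nearest the threshold, and its call was lost in 5 of 6 fits without 1 array (adjusted p up to 0.174 without control siRNA replicate 1). It was also lost with quantile normalization again (adjusted p = 0.0596) and median centring (0.0503). BMS1 has several pseudogenes, and both rows that the annotation shares between BMS1, its pseudogenes and AGAP11 differed little between the groups. One averaged 7.90 ± 0.04 with CTNNB1 siRNA and 7.87 ± 0.06 with control siRNA, and the other 7.30 ± 0.05 with CTNNB1 siRNA and 7.28 ± 0.08 with control siRNA (SD, n = 3 each). RCL1 lost its call in 2 of 6 fits without 1 array, with an adjusted p of up to 0.0514 without control siRNA replicate 1.

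NOP14 forms a module with NOC4L and the methyltransferase EMG1, and UTP14A works with the helicase DHX37. Of the 4 genes 1 fell. NOP14 measured 8.24, 8.003 and 8.28 with CTNNB1 siRNA, against 8.89, 8.67 and 8.73 with control siRNA, and fell by 0.59 ± 0.11 (SE; limma, adjusted p = 0.0162), a call lost in 4 of 6 fits without 1 array (up to 0.0874 without control siRNA replicate 1). UTP14A, which has a near-identical intronless copy, UTP14C, that may share its signal, measured 7.94, 7.99 and 8.09 with CTNNB1 siRNA, against 8.41, 8.32 and 8.28 with control siRNA, a change of -0.33 ± 0.10 (adjusted p = 0.0829). EMG1, which modifies a pseudouridine of the small subunit rRNA, measured 7.49, 7.73 and 7.79 with CTNNB1 siRNA, against 8.04, 7.83 and 8.06 with control siRNA, a change of -0.31 ± 0.12 (adjusted p = 0.167). NOC4L, the binding partner of NOP14, measured 7.63, 7.54 and 7.46 with CTNNB1 siRNA, against 7.63, 7.51 and 7.72 with control siRNA. The NOC4L groups overlapped throughout, with a change of -0.08 ± 0.10 (adjusted p = 0.715).

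RNA helicases of the particle unwind rRNA and small nucleolar RNA duplexes. Of 4 genes 2 fell, and all 4 had CTNNB1 siRNA arrays below the control arrays. Over all genes 2.65% fell and 15.2% had that arrangement, as had 25.6% of genes of like brightness. DDX21, a nucleolar helicase that also associates with RNA polymerase I and II transcription, measured 9.10, 9.22 and 9.21 with CTNNB1 siRNA, against 9.95, 9.80 and 10.08 with control siRNA. It fell by 0.76 ± 0.11 log2 units (SE), or 41.2% of its signal, and had the smallest p of the 47 genes (limma, adjusted p = 0.00341). DDX10, whose yeast counterpart Dbp4 frees a small nucleolar RNA from the precursor, measured 6.74, 6.42 and 6.63 with CTNNB1 siRNA, against 7.39, 7.14 and 7.39 with control siRNA, and it fell by 0.71 ± 0.12 (adjusted p = 0.0102). DDX10 was lost only without control siRNA replicate 1, with an adjusted p of 0.0553. DHX37, which removes U3 from the precursor, measured 7.26, 7.21 and 6.93 with CTNNB1 siRNA, against 7.39, 7.44 and 7.53 with control siRNA, a change of -0.32 ± 0.11 (adjusted p = 0.145). DDX52, the counterpart of yeast Rok1, measured 8.36, 8.42 and 8.48 with CTNNB1 siRNA, against 8.85, 8.55 and 8.72 with control siRNA, a change of -0.29 ± 0.11 (adjusted p = 0.155).

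Among 8 other nucleolar factors 3 fell and 5 missed the threshold, and the median change was -0.35. UTP20, a very large HEAT-repeat protein of the particle, showed the largest fall of all 47 genes and measured 7.11, 6.93 and 7.11 with CTNNB1 siRNA, against 8.05, 7.68 and 7.93 with control siRNA. It fell by 0.83 ± 0.12 log2 units (SE), or 43.9% of its signal (limma, adjusted p = 0.00399). NAT10, the acetyltransferase of small subunit rRNA and some tRNAs, measured 8.85, 8.85 and 8.78 with CTNNB1 siRNA, against 9.31, 9.15 and 9.30 with control siRNA, and it fell by 0.42 ± 0.09 (adjusted p = 0.0336). DCAF13, the counterpart of yeast Sof1, measured 7.22, 7.11 and 7.43 with CTNNB1 siRNA, against 7.84, 7.69 and 7.69 with control siRNA, and it fell by 0.49 ± 0.11 (adjusted p = 0.0349). Calls were lost in 5 of 6 fits without 1 array for NAT10 (up to 0.150 without control siRNA replicate 1) and 5 of 6 for DCAF13 (up to 0.154 without control siRNA replicate 1).

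The 5 others did not pass, and 3 of them had overlapping groups. NOL10, the counterpart of yeast Enp2, measured 8.40, 8.09 and 8.50 with CTNNB1 siRNA, against 8.70, 8.54 and 8.78 with control siRNA, without overlap (adjusted p = 0.155). UTP11 measured 8.25, 8.03 and 8.36 with CTNNB1 siRNA, against 8.52, 8.44 and 8.60 with control siRNA, also without overlap (adjusted p = 0.155). ESF1 had the widest spread of the 47 genes among CTNNB1 siRNA arrays, at 8.11, 7.70 and 8.37, against 8.56, 8.33 and 8.39 with control siRNA (adjusted p = 0.217). UTP3, or SAS10, had a change of -0.18 ± 0.11 (adjusted p = 0.417) and KRR1, an RNA-binding assembly factor, of -0.08 ± 0.11 (adjusted p = 0.762), both with overlapping groups.

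Of 8 late maturation and export factors 5 fell and 3 missed the threshold, and in all 8 the CTNNB1 siRNA arrays lay below the control arrays. Over all genes 2.65% fell and 15.2% had that arrangement, as had 25.6% of genes of like brightness. The median change of the 8 was -0.54. BYSL, or bystin, which stays on the particle from the nucleolus to the cytoplasm, measured 7.39, 7.61 and 7.43 with CTNNB1 siRNA, against 8.18, 8.03 and 8.28 with control siRNA, and it fell by 0.68 ± 0.11 (SE; limma, adjusted p = 0.00729). NOB1, the endonuclease that makes the mature end of the small subunit rRNA, measured 7.87, 7.95 and 7.99 with CTNNB1 siRNA, against 8.44, 8.49 and 8.64 with control siRNA, and it fell by 0.59 ± 0.10 (adjusted p = 0.00997). PNO1, the RNA-binding partner of NOB1, measured 7.09, 7.35 and 7.47 with CTNNB1 siRNA, against 7.91, 7.74 and 7.86 with control siRNA, and it fell by 0.53 ± 0.12 (adjusted p = 0.0325). Both genes of this pair thus passed the threshold.

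RRP12, a HEAT-repeat protein of nuclear export, measured 6.92, 6.67 and 6.72 with CTNNB1 siRNA, against 7.33, 7.31 and 7.31 with control siRNA. The control arrays lay within 0.02 of each other, and RRP12 fell by 0.55 ± 0.10 (SE; limma, adjusted p = 0.0145). LTV1, which is removed from the subunit by phosphorylation, measured 7.94, 7.95 and 8.18 with CTNNB1 siRNA, against 8.75, 8.53 and 8.46 with control siRNA, and it fell by 0.55 ± 0.12 (adjusted p = 0.0243). Leaving out 1 array ended the call in 1 of 6 fits for NOB1 (adjusted p = 0.0562 without CTNNB1 siRNA replicate 1), 3 of 6 for RRP12, 4 of 6 for LTV1 and 5 of 6 for PNO1. For RRP12, LTV1 and PNO1 the highest adjusted p was 0.0706, 0.117 and 0.140, each without control siRNA replicate 1.

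The atypical kinases and the GTPase-like factor of the late particle lay just outside the threshold. RIOK1 measured 7.90 to 8.22 with CTNNB1 siRNA, against 8.40 to 8.70 with control siRNA, a change of -0.48 ± 0.12 (SE; limma, adjusted p = 0.0520). RIOK2, which acts on the late particle before RIOK1, measured 6.94, 6.99 and 7.21 with CTNNB1 siRNA, against 7.49, 7.31 and 7.63 with control siRNA, a change of -0.43 ± 0.12 (adjusted p = 0.0693). TSR1, which in yeast keeps immature subunits from binding translation factors, measured 8.01, 8.17 and 8.24 with CTNNB1 siRNA, against 8.55, 8.39 and 8.68 with control siRNA, a change of -0.40 ± 0.11 (adjusted p = 0.0695). In each of the 3 the highest CTNNB1 siRNA array stayed below the lowest control array. All 10 role groups held at least 1 gene that fell, and differences between the groups were not tested.

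No other gene listed for the small subunit pathway passed the threshold. Among 21 further small subunit factors, listed from knowledge of the pathway and not by their changes, limma called none, and 10 had an unadjusted p under 0.05, as had 20.3% of all genes. The median change of the 21 was -0.19, with 19 negative values, and 11 had CTNNB1 siRNA arrays all below the control arrays. Over all genes 48.8% had a negative change and 15.2% had that arrangement. DIMT1, which dimethylates the small subunit rRNA, measured 8.29, 8.06 and 8.42 with CTNNB1 siRNA, against 8.69, 8.59 and 8.81 with control siRNA, a change of -0.44 ± 0.12 (adjusted p = 0.0631). RIOK3, a relative of RIOK1 and RIOK2, lay on the other side at 10.10, 10.15 and 10.18 with CTNNB1 siRNA, against 9.88, 9.80 and 9.78 with control siRNA, a change of 0.33 ± 0.09 (adjusted p = 0.0733). In other settings between 0 and 4 of the 21 fell and between 0 and 1 rose. Whether these genes differ from the 47 was not tested.

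Assembly factors of the large ribosomal subunit also included genes that fell. Of 54 measured genes 17 fell, 37 missed the threshold and none rose. Over all genes 2.65% fell and 2.07% rose. The median change was -0.35, and 53 of the 54 had negative changes, beside 48.8% of all genes. In 43 of the 54 all CTNNB1 siRNA arrays lay below all control arrays, beside 15.2% of all genes. Among the 47 genes above these counts were 46 and 39. The 4 with the smallest p were GNL3L, a nucleolar GTPase gene, at -0.78 ± 0.11 (limma, adjusted p = 0.00342), RRS1 at -0.74 ± 0.11 (adjusted p = 0.00495), NOP16 at -0.61 ± 0.09 (adjusted p = 0.00605) and WDR12, of the PES1-BOP1 complex, at -0.63 ± 0.10 (adjusted p = 0.00810). The count of falls was between 5 and 15 with 1 array left out. Of the 47 processome and late factors 46.8% fell and of these 54 large subunit factors 31.5%, a difference that was not tested.

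**Figure D4:**
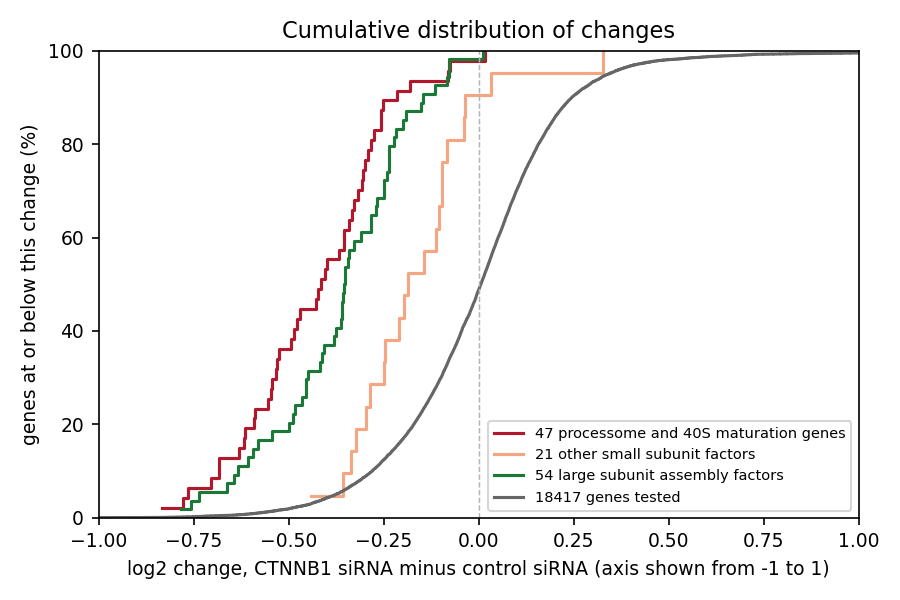
Cumulative share of genes at or below each log2 change, CTNNB1 siRNA minus control siRNA, for the 47 processome and late genes, 21 other small subunit factors, 54 large subunit assembly factors and all 18417 genes tested. The medians of the 4 curves are -0.42, -0.19, -0.35 and 0.01.

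MYC, the transcription factor named above, was lower in the same cells. It measured 9.86, 9.68 and 9.75 with CTNNB1 siRNA, against 10.38, 10.35 and 10.40 with control siRNA, and fell by 0.61 ± 0.09 log2 units (SE; adjusted p = 0.00644 in limma), with no overlap. MYC binds the E-box CACGTG, and the gene starts of the members were searched for it, along with the TCF/LEF core CTTTGAA and the palindromic NRF1 motif. The windows were the first listed for each gene in RefSeq (GRCh38.p14) and ran from 250 bases before to 50 bases after the start, on both strands. CACGTG reads the same on both strands, and none of the motifs contains another. Of the 48 genes 42 had a window. MPHOSPH10, NOL10, NOP58, DCAF13, RRP12 and DDX52 had none.

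CACGTG stood in 18 of the 42 windows, or 42.9%, beside 7.43% of 27305 genes' windows and 8.88% of the windows of genes tested here. In 17 of the 18 a copy began within 50 bases of the start. It stood in 10 of 19 windows of genes that fell and in 8 of 22 windows of measured genes that did not pass, a difference that was not tested. Among the other small subunit factors it stood in 6 of 19 windows, and among the large subunit factors in 15 of 52. HEATR1 had no copy, and DDX21 had none in its first window and 1 in its second. CTTTGAA stood in 3 of the 42 windows, those of DDX21, EMG1 and NOB1, or 7.14%. That is beside 4.53% of all windows and 3.64% of those of genes tested here. The NRF1 motif stood in 4, those of DDX10, NOB1, UTP18 and ESF1, or 9.52%. That is beside 1.36% of all windows and 1.8% of those of genes tested here. A match in these letters is not evidence of binding, which was not measured here.

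The windows of the 3 called genes with the smallest p that hold the E-box show where it lies (RefSeq, GRCh38.p14). Each is printed in the direction of transcription in lower case, with CACGTG in capitals. UTP20 (chr12:101279855-101280154, plus strand) has it beginning 10 bases before the start, RCL1 (chr9:4792694-4792993, plus strand) 4 bases after it and BYSL (chr6:41921249-41921548, plus strand) 28 bases after it.
UTP20: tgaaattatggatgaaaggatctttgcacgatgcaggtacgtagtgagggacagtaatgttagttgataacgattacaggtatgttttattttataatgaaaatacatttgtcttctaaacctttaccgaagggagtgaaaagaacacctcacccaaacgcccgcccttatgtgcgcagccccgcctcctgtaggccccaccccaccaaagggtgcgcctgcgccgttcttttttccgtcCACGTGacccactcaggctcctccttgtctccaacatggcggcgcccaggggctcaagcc
RCL1: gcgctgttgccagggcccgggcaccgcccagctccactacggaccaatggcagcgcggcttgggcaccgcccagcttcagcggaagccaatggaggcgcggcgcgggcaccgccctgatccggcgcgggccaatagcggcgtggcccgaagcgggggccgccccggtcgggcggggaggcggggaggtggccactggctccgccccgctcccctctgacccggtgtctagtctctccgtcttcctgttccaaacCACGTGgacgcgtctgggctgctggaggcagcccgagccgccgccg
BYSL: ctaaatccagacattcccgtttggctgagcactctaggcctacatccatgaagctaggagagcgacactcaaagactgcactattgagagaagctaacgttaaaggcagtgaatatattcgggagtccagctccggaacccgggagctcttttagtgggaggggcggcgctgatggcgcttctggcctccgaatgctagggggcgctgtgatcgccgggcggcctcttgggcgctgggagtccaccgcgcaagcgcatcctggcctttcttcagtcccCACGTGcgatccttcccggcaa

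These are the genes whose values were given above with falls of 0.83 ± 0.12, 0.63 ± 0.11 and 0.68 ± 0.11 log2 units (SE). HEATR1, without a copy, fell by 0.78 ± 0.11. The part of MYC or of the motif in the lower signals was not tested.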

How the data were processed

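RNA of 6 YCC3 samples (500 ng each) was read on Affymetrix Human Gene ST arrays. Per the submitters' processing notes, the authors used RMA and Affymetrix Expression Console 1.1. That the deposited values are log2 was judged from their range, 0.789 to 14.5. The genome build is not given in the sources used here. Calls of signal over background were not used here, and the number of arrays limits the precision.

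Of 33297 rows, 19460 had exactly 1 gene symbol in the platform annotation, 1754 had several and 12083 were not named. The brightest row over the 6 arrays was kept for each of 18417 genes. All 47 measured genes matched RefSeq by gene ID and symbol. limma 3.58.1 in R 4.3.3 (lmFit, eBayes, two-sided) compared CTNNB1 siRNA with control siRNA, calling genes at a Benjamini-Hochberg adjusted p under 0.05 over the whole table. The fit was tested on simulated data.

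The members, lists and tests were chosen with earlier results of these data known. Any of the 47 genes could be named. From the other ribosome lists the called genes with the smallest p were named, at most 4, or the 2 with the smallest p where none was called. No 2 arrays were identical: within groups their differences over genes had an SD of 0.203 to 0.262.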

Additional observations from a re-analysis of the deposited data

Results flagged for a closer look

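A second row of PDCD11, which the comparison does not use because it is the dimmer of 2, was higher in each CTNNB1 siRNA array than in any control array, by 0.33 log2 units, where the row used for PDCD11 fell by 0.62. Its adjusted p in a fit over all rows was 0.171.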

How the results depend on the processing

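All 22 falls kept their direction in each of 16 other settings, and 4 of them (UTP20, HEATR1, DDX21 and BYSL) kept their call in all 16. The median change of the 47 genes moved by less than the spread between replicates in every one, and CTNNB1 and MYC stayed called. The number of genes that fell, 22 of 47 as reported, was 25 with the replicate block, where 3.84% of all genes fell. It was 34 with the dimmest 50% of genes removed, where 13.2% of all genes fell. With the arrays centred on genes of like brightness, a setting added after seeing the data, it was 14, and 1.54% of all genes fell. With 1 array left out the count was 5 to 21. The other small subunit factors, none called as reported, had 1 fall with the replicate block, 2 with the dimmest 25% removed, 4 with the dimmest 50% removed, 2 with a trended and robust variance, 1 with array weights and 0 to 1 with 1 array left out. Over all genes 6.71% fell with the dimmest 25% removed and 5.63% with the trended and robust variance. Of the 21, 1 rose under each of those filters, the trended and robust variance and cyclic loess, where none fell. Their median of -0.19 became -0.13 under cyclic loess, -0.12 with centring on genes of like brightness and between -0.24 and -0.11 with 1 array left out. The 17 falls among 54 large subunit factors became 26 with the dimmest 25% removed and 33, of 53 tested, with the dimmest 50% removed. The count was 28 with a trended and robust variance and 5 to 15 with 1 array left out. It was 14 under cyclic loess, 14 with quantile normalization again and 13 with centring on genes of like brightness. The median of the large subunit factors, -0.35, became -0.28 under cyclic loess and -0.29 with that centring. Filters leave fewer genes to adjust over, and leaving out an array leaves fewer samples. For the other settings the cause was not tested. Same-numbered samples did not deviate together in every pair, with correlations of -0.02, 0.33 and 0.22 for numbers 1, 2 and 3. Differently numbered samples across the groups had correlations from -0.29 to 0.08. These values do not settle if the numbers mark pairs. The main fit did not pair the samples, and the replicate block was kept as a setting.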
